A study of Mus musculus with 12 samples.

Results

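The genes described here encode transporters that carry amino acids and small peptides across membranes, most of them across the plasma membrane of the cell. They were chosen by name, as the protein-coding genes of the solute carrier families Slc1, Slc3, Slc6, Slc7, Slc15, Slc36, Slc38 and Slc43. Slc7a11 (cystine for glutathione), Slc6a6 and Slc6a12 (the osmolytes taurine and betaine) and Slc6a8 (creatine) were left out by name. The rule gave 62 genes of 41740 in the tables, and it used no measured value. The genes, their roles and the gene lists used below were nonetheless chosen with earlier results of these data known. Each gene was given a role from general knowledge: 9 brush border carriers, 5 basolateral carriers, 8 stress-induced carriers, 5 lysosomal carriers, 13 neuronal or glial carriers and 22 others. The name pattern takes in carriers of lysosomes and a few monoamine and GABA carriers, so the set is wider than the plasma membrane carriers of amino acids alone.

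The RIAKI group held 6 kidneys of wild-type male C57BL/6NCrl mice with rhabdomyolysis-induced acute kidney injury (RIAKI), and the control group held 6 kidneys of sham-treated mice of the same kind. Drinking water was withheld for 19 h in both groups. RIAKI mice then had 50% glycerol injected into the muscle of the left hind limb (0.05 ml for each 10 g of weight), which breaks down muscle and floods the kidney with myoglobin, whereas control mice received saline. All mice had isoflurane anesthesia and Rimadyl (carprofen, a painkiller, 5 mg/kg), so both groups carried water deprivation, anesthesia and the drug, and kidneys were taken at 24 h. The age of the mice was not given in the sources used here, and whole kidney was sequenced, which mixes all cell types.

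In the kidney, nearly all filtered amino acids are taken back in the proximal tubule. Carriers in the brush border, the microvillus-covered membrane that faces the urine, bring them into the cell, usually together with sodium or in exchange for another amino acid. Carriers in the basolateral membrane then pass them on to the blood. Several of these proteins work only in pairs: the heavy chain of Slc3a1 (rBAT) brings the light chains of Slc7a9 and Slc7a13 to the brush border, and the heavy chain of Slc3a2 (4F2hc, CD98) serves Slc7a5, Slc7a7 and Slc7a8. Slc6a18 and Slc6a19 need the accessory protein collectrin (Cltrn). A separate set, led by Slc38a2 and Slc7a5, is known from cultured mammalian cells as being raised when amino acids run short, under control of the transcription factor ATF4.

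Each library counted molecules from the 3′ end of transcripts, with 1 library per mouse and 1579157 to 2073959 counts per library. Of these counts, 34.1% to 58.9% were mitochondrial ribosomal RNA in RIAKI libraries, against 36.6% to 52.7% in control libraries. Levels are given as CPM, counts per 1000000 counts of a library after TMM scaling. A transcript gives tags from its 3′ end only, so CPM was not divided by length and is compared here within a gene. Differences are log2 fold changes of RIAKI over control from edgeR's quasi-likelihood test on all genes with at least 10 counts over the 12 libraries, and a gene was called where its Benjamini-Hochberg adjusted p over all tested genes was under 0.05. All 16 proximal tubule markers were tested and seen in every library. Kap alone had 2438 to 6264 CPM in RIAKI and 6680 to 11533 CPM in controls, and the other 15 summed to 696 to 1020 CPM in RIAKI and 2675 to 2963 CPM in controls.

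Amino acid transporter transcripts summed to a lower level in RIAKI kidneys. The 62 genes summed to 416 to 486 CPM in RIAKI and 783 to 919 CPM in controls, ranges that did not overlap. The medians of the sum were 448 CPM in RIAKI and 866 CPM in controls. Slc7a13 alone had medians of 28.5 and 322 CPM, so most of the difference in the sum came from that gene. In bulk kidney, fewer cells of a type and less RNA per cell cannot be told apart. Of these 62 genes, 39 had enough counts for the test, 14 had no count in any library and the other 9 had at most 5 counts in all. Among the 39, 3 were higher in RIAKI (Slc6a18, Slc38a2 and Slc7a1), 12 were lower (11 without Slc7a12, which had counts only in controls) and 24 were not called. Over all 13536 genes tested, 36.3% were called, 17.4% higher and 18.8% lower. The median log2 fold change was -0.39 over the 39 tested transporters and -0.01 over all tested genes. The groups did not overlap in CPM for 13 of the 39, against 19.3% of all tested genes.

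Most brush border and basolateral genes were lower, and a few stress-induced genes were higher. Of the 7 tested brush border genes 5 (71.4%) were lower and 1 was higher, with a median log2 fold change of -1.22. Of the 5 basolateral genes 4 (80%) were lower, with a median of -1.95, against 18.8% lower among all tested genes. Of the 7 tested stress-induced genes 2 (28.6%) were higher, against 17.4% of all tested genes, and 0 were lower, with a median of 0.76. With so few genes the stress-induced share is near that background, and no test compared the roles. No stress-induced gene was lower at an unadjusted p under 0.05 either, and DESeq2 and edgeR's exact test called the same number. Brush border genes held 43.9% to 67.4% of all transporter counts in RIAKI kidneys and 69.7% to 78.1% in control kidneys. A single gene, Slc7a13, made up between 34.3% and 43.8% of each control kidney's transporter counts, but only between 3.90% and 9.25% after RIAKI. Slc6a18 and Slc6a19 each took a larger share after RIAKI. The lower brush border share thus rests on Slc7a13 and does not show a shift of the whole role. For stress-induced genes the share was 19.4% to 35.0% in RIAKI and 5.03% to 9.07% in controls. These shares are descriptions that rest on no test, and since they add up within a kidney, a fall of one role raises the others.

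**Figure D1:**
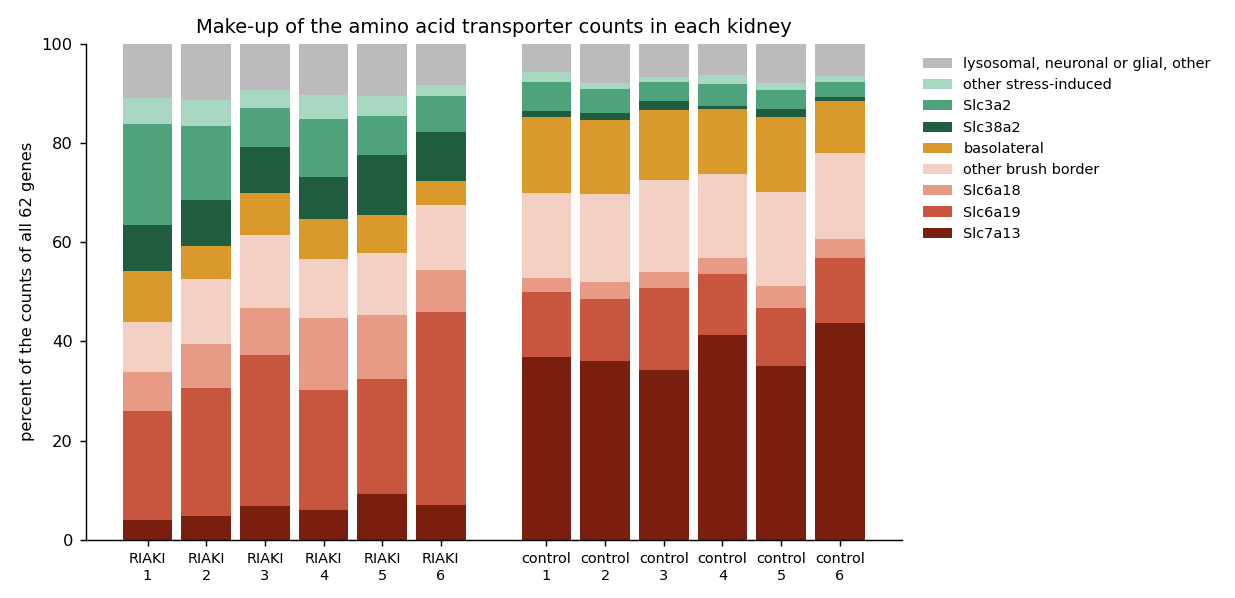
Percent of the counts of all 62 transporter genes (y axis) taken by single genes or roles in each kidney, RIAKI left and control right. Slc7a13 held 34.3% to 43.8% of the transporter counts in control kidneys, against 3.90% to 9.25% in RIAKI kidneys, where Slc6a19 had the widest band.

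Slc7a13 had the lowest log2 fold change of any brush border member. It encodes a light chain that carries cystine, aspartate and glutamate in the last segment of the proximal tubule, where it pairs with rBAT. The gene (ENSMUSG00000041052) lies on chromosome 4 (19818725 to 19842218, GRCm38). Its level was 18.3, 28.5 and 39.1 CPM (lowest, median and highest) in RIAKI kidneys, against 278, 322 and 383 CPM in control kidneys. Every RIAKI kidney lay far below every control kidney. The log2 fold change was -3.52 (SE 0.17, edgeR adjusted p = 6.98e-16), an 11.5-fold lower level. The 16 proximal tubule markers had log2 fold changes of -3.06 (Slc5a12) to -0.88 (Kap), all of them called lower, so the estimate for Slc7a13 lay beyond the range of that list. Whether the difference from those markers is larger than the error was not tested. The reads in its introns were 4 in RIAKI and 117 in controls, and these groups did not overlap either when divided by library size.

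Its partner and the other rBAT light chain were lower too, by less. Slc3a1, the rBAT heavy chain whose loss causes cystinuria, had 19.2, 28.1 and 35.1 CPM in RIAKI and 65.6, 69.4 and 76.2 CPM in controls. The RIAKI kidneys all lay lower, with a log2 fold change of -1.37 (SE 0.15, edgeR adjusted p = 2.19e-08). Slc7a9, the light chain for cystine and basic amino acids in the early proximal tubule, had 9.37, 13.0 and 21.8 CPM in RIAKI and 21.01, 33.7 and 36.99 CPM in controls. The highest RIAKI kidney overlapped the lowest control kidney, and the log2 fold change was -1.19 (SE 0.20, edgeR adjusted p = 2.34e-05). Slc7a13 made up 60.6% to 75.2% of the counts of both light chains in RIAKI and 88.8% to 94.8% in controls. The make-up of the light chain transcripts thus differed between the groups without overlap, given here as a description.

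Slc15a2 and Slc1a1 completed the lower brush border genes. Slc15a2 (PEPT2), the high-affinity carrier for di- and tripeptides, had 5.62, 6.66 and 7.53 CPM in RIAKI and 27.4, 29.1 and 37.4 CPM in controls. The RIAKI kidneys were close to each other and all lay lower, with a log2 fold change of -2.20 (SE 0.18, edgeR adjusted p = 5.9e-11). Intron reads of Slc15a2 were 90 in RIAKI and 80 in controls, so they were not lower along with the exon counts. Slc1a1 (EAAT3), the carrier of glutamate and aspartate, had 6.70, 8.25 and 11.8 CPM in RIAKI and 13.4, 18.8 and 30.5 CPM in controls. The groups did not overlap, and the log2 fold change was -1.22 (SE 0.22, edgeR adjusted p = 4.12e-05). On the opposite strand of Slc1a1 lies 4430402I18Rik with 19 counts in RIAKI and 73 in controls. Whether the counting used strand was not given in the sources used here, so part of the Slc1a1 counts could belong to that gene. Slc15a1 and Slc36a2, the other 2 brush border genes, had 5 and 2 counts in all and were not tested.

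Slc6a18 and Slc6a19 stood apart from the other brush border genes. Both encode sodium-driven carriers of neutral amino acids, and they lie next to each other on chromosome 13 (Slc6a18 at 73661752 to 73678023, Slc6a19 at 73679745 to 73704865, GRCm38). Slc6a18 (B0AT3) had 36.3, 42.6 and 60.0 CPM in RIAKI and 24.8, 30.1 and 34.8 CPM in controls. Every RIAKI kidney was above every control kidney, by a small margin, with a log2 fold change of 0.61 (SE 0.16, edgeR adjusted p = 0.00326), or 1.52-fold. Slc6a19 (B0AT1), the main brush border carrier of neutral amino acids and the gene of Hartnup disorder, had 98.4, 109 and 178 CPM in RIAKI and 92.8, 114 and 141 CPM in controls. The groups overlapped, and the log2 fold change was 0.14 with a 95% confidence interval of -0.19 to 0.46 (edgeR adjusted p = 0.542). A change as large as that of the other brush border genes lay outside this interval. On the opposite strand, Slc6a19os overlaps Slc6a19 and had 26 counts in RIAKI and 2 in controls, few beside the 1313 and 1263 counts of Slc6a19.

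Their partner did not keep pace with them. Cltrn, whose product collectrin brings both carriers to the brush border, had 130, 233 and 279 CPM in RIAKI and 532, 562 and 721 CPM in controls, and all RIAKI kidneys lay lower (log2 fold change -1.50, SE 0.17, edgeR adjusted p = 1.72e-08). Per 100 Cltrn counts, Slc6a18 and Slc6a19 together had 54.6, 84.1 and 108 counts in RIAKI and 20.5, 24.0 and 27.0 counts in controls, a description without overlap of the groups. Other genes of the same membrane, outside the name pattern, were also lower. Slc6a20b, an imino acid carrier, had a log2 fold change of -2.45, and Pdzk1, a scaffold that anchors brush border carriers, one of -2.50. Slc6a20a, with 17 counts in all, was not called (log2 fold change 0.14). Slc16a10, an aromatic amino acid carrier not counted among the brush border genes here, was not called either (-0.14).

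**Figure D2:**
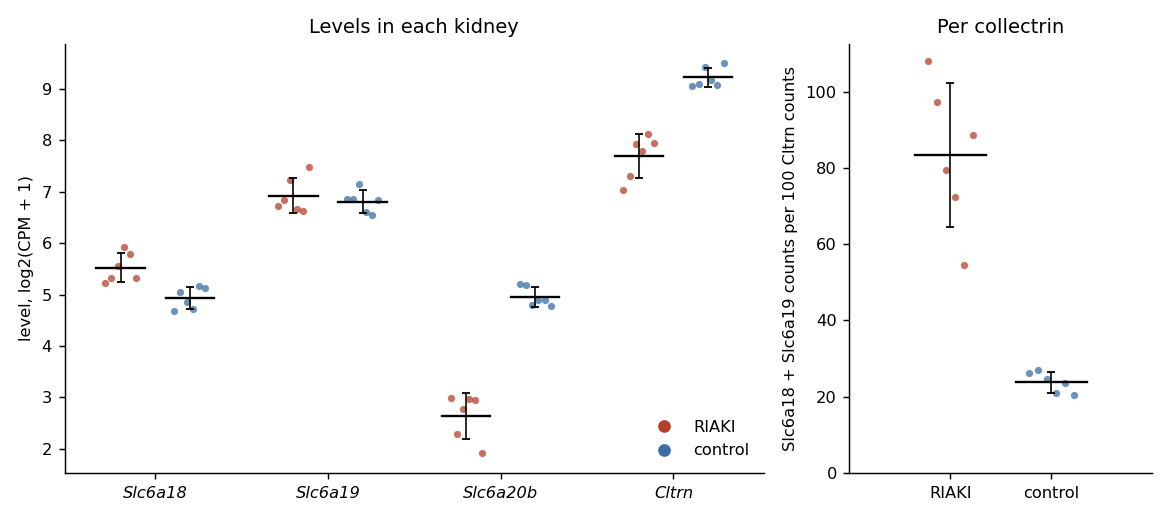
Left, log2(CPM + 1) of 2 brush border carriers of neutral amino acids, an imino acid carrier and collectrin, 1 point per kidney with the group mean and SD (n = 6), RIAKI left of control. Right, counts of Slc6a18 and Slc6a19 per 100 Cltrn counts, from 54.6 to 108 in RIAKI and from 20.5 to 27.0 in controls.

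The basolateral carriers, not all of which serve exit to the blood, were lower as a group, 4 of 5 passing the test. Slc7a7 (y+LAT1), which passes lysine, arginine and ornithine to the blood and is mutated in lysinuric protein intolerance, had 6.18, 9.497 and 15.1 CPM in RIAKI and 23.3, 40.4 and 52.4 CPM in controls. Slc7a8 (LAT2), the exchanger of neutral amino acids, had 1.10, 4.39 and 7.74 CPM in RIAKI and 14.4, 17.2 and 27.4 CPM in controls. Slc6a13 (GAT2), a GABA and taurine carrier of the basolateral membrane, had 7.16, 10.9 and 16.7 CPM in RIAKI and 34.8, 45.8 and 52.5 CPM in controls. For these 3 genes each RIAKI kidney lay below each control kidney, and their log2 fold changes were close to each other. They were -1.98 (SE 0.23) for Slc7a7, -1.96 (SE 0.28) for Slc7a8 and -1.95 (SE 0.19) for Slc6a13. The edgeR adjusted p was 3.06e-08 for Slc7a7, 1.23e-06 for Slc7a8 and 1.51e-09 for Slc6a13.

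Slc43a2 (LAT4), which lets essential neutral amino acids out of the cell, had 4.97, 6.05 and 8.56 CPM in RIAKI and 9.77, 12.2 and 16.4 CPM in controls. The groups did not overlap, with a log2 fold change of -0.97 (SE 0.23, edgeR adjusted p = 0.0012). Slc38a3 (SNAT3), which takes up glutamine for ammonia production, had 0, 1.88 and 3.26 CPM in RIAKI and 1.58, 2.53 and 2.84 CPM in controls, from 47 counts in all. Its log2 fold change of -0.39 had a 95% confidence interval of -1.37 to 0.58 and was not called (edgeR adjusted p = 0.561). A fall like that of Slc43a2 lies inside this interval as well. Slc7a7 overlaps Oxa1l on the opposite strand at its 3′ end, which had 50 counts in RIAKI and 94 in controls.

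**Figure D3:**
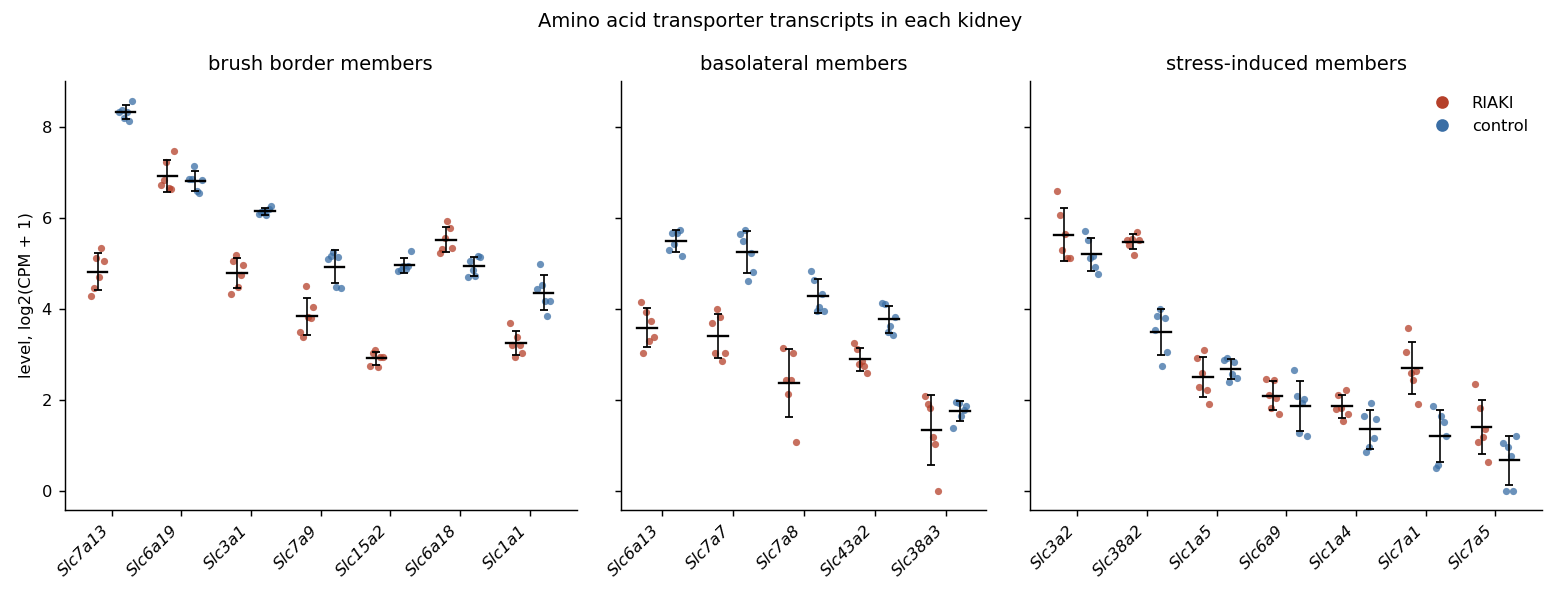
Level of each tested brush border, basolateral and stress-induced gene as log2(CPM + 1), 1 point per kidney, RIAKI left of control, with the group mean and SD (n = 6). Slc7a13 shows the widest gap, Slc6a19 overlaps between the groups, and Slc38a2 lies at 35.6 to 51.0 CPM in RIAKI against 5.64 to 14.98 CPM in controls.

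Among the stress-induced genes, Slc38a2 and Slc7a1 were higher in RIAKI. Slc38a2 (SNAT2), the sodium-driven carrier of small neutral amino acids that cells raise upon amino acid shortage, had 35.6, 44.6 and 51.0 CPM in RIAKI and 5.64, 11.7 and 14.98 CPM in controls. All RIAKI kidneys were above all control kidneys, with a log2 fold change of 1.97 (SE 0.19, edgeR adjusted p = 9.09e-10), or 3.93-fold. Slc7a1 (CAT1), the widespread carrier of arginine and lysine, had 2.76, 5.09 and 11.02 CPM in RIAKI and 0.41, 1.57 and 2.64 CPM in controls. The highest control kidney came close to the lowest RIAKI kidney without reaching it. The log2 fold change was 2.09 (SE 0.43, edgeR adjusted p = 0.000277) and rested on 66 counts in RIAKI and 15 in controls.

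The 5 other tested genes of this role did not pass the test. Slc3a2, the heavy chain of CD98, had 33.5, 43.6 and 95.4 CPM in RIAKI and 26.3, 34.1 and 51.2 CPM in controls. The highest value came from RIAKI replicate 1, with 234 counts, and the groups overlapped. The log2 fold change was 0.53 (SE 0.22, edgeR adjusted p = 0.0579), and without RIAKI replicate 1 it was 0.29 (adjusted p = 0.262). Under 8 of the 21 alternatives Slc3a2 was called higher, with adjusted p-values down to 0.00688, among them 5 that left out another kidney. Slc7a5 (LAT1), the light chain for large neutral amino acids such as leucine, had 0.55, 1.40 and 4.08 CPM in RIAKI and 0, 0.82 and 1.31 CPM in controls. With 21 counts in RIAKI and 7 in controls, its log2 fold change of 1.48 (SE 0.65) was not called (edgeR adjusted p = 0.0752). Slc7a5 also lies within Gm20388 on the opposite strand (87 counts in RIAKI, 72 in controls), so its few counts are uncertain.

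The carriers of serine, glutamine and glycine showed no call. The log2 fold change was 0.76 (95% confidence interval -0.13 to 1.64) for Slc1a4 (ASCT1), -0.17 (-0.76 to 0.43) for Slc1a5 (ASCT2) and 0.23 (-0.54 to 1.00) for Slc6a9 (GLYT1). These intervals hold 0 as well as a 2-fold rise for Slc1a4 and Slc6a9. Slc7a3 (CAT3) had 0 counts. When RIAKI replicate 6, the kidney with the lowest Slc7a1 and Slc7a5 levels of its group, was left out, 4 stress-induced genes were called higher, Slc3a2 and Slc7a5 among them. With the stricter low-count filter of edgeR (filterByExpr) only 2 genes of this role were tested, Slc38a2 and Slc3a2, and Slc38a2 was higher. Slc7a1 was removed by that filter, so its call has no counterpart there.

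**Figure D4:**
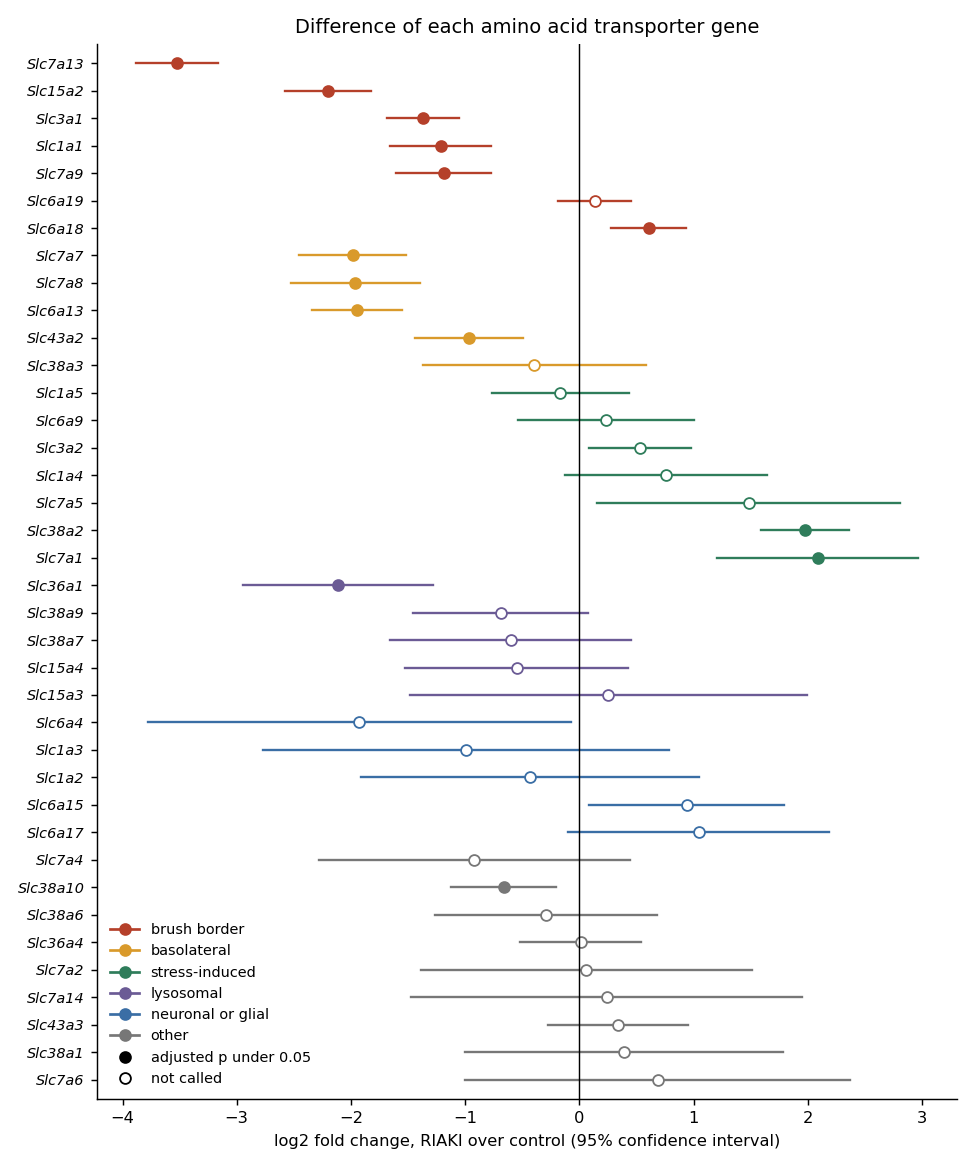
Log2 fold change (x axis, RIAKI over control) and its 95% confidence interval for 38 of the 39 tested transporter genes, grouped by role, filled where the adjusted p was under 0.05. Slc7a12, with 0 counts in RIAKI, is left out. Of the 11 lower calls shown, 9 are brush border or basolateral genes, down to -3.52 for Slc7a13, and the others are Slc36a1 and Slc38a10. The higher calls are Slc6a18, Slc38a2 and Slc7a1.

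The ATF4 response outside the transporters was described with a list of 19 genes, all of them tested. Of these, 15 (78.9%) were higher in RIAKI, against 17.4% of all tested genes. Only 1 was lower (Vldlr, log2 fold change -0.69) and 3 were not called, with a median of 1.5. The summed level of the list was 566 to 723 CPM in RIAKI and 174 to 211 CPM in controls. Atf4 itself had a log2 fold change of 1.76, Asns (asparagine synthetase) of 2.55, Trib3 (a pseudokinase that dampens ATF4) of 3.18 and Chac1 (which breaks down glutathione) of 3.38. Trib3 and Chac1 had only 7 and 5 counts in controls, so the size of their change is imprecise. The list ran from -0.69 to 3.38. Slc38a2 (1.97), Slc7a1 (2.09), Slc1a5 (-0.17) and Slc6a9 (0.23) all lay within that wide range, so it does not tell them apart. The part of ATF4 in the transporter levels was not tested.

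The start sites of the members were searched for the letters TGATGNAA on both strands, the pattern of composite C/EBP-ATF elements that ATF4 binds. RefSeq promoter windows of 300 bases, 250 before and 50 after the start (GRCm38.p6), were at hand for 45 of the 62 genes, and 4 of these had a match (Slc15a5, Slc1a4, Slc6a21 and Slc7a7). Among all 27025 genes with a window, 4.51% had one. No window of Slc38a2 or Slc7a1, the called stress-induced genes, held the letters, whereas Slc7a7, which was lower in RIAKI, held them in 2 of its 5 windows. A match is a description of letters and not a bound site. Bases outside the windows were not searched, so a gene without a match here may hold the letters elsewhere. From these windows, 3 stretches are given, each from 150 bases before to 20 after the RefSeq start. They read 5′ to 3′ on the strand of the gene, with the matches in capitals.
Slc38a2 chr15:96699709-96699878 (- strand): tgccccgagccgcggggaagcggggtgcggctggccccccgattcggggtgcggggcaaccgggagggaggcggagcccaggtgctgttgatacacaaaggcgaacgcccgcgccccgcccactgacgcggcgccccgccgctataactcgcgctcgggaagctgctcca
Slc1a4 chr11:20332694-20332863 (- strand): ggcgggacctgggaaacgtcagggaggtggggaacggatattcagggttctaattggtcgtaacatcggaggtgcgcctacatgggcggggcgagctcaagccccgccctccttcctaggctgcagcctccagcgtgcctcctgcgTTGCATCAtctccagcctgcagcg
Slc7a7 chr14:54417925-54418094 (- strand): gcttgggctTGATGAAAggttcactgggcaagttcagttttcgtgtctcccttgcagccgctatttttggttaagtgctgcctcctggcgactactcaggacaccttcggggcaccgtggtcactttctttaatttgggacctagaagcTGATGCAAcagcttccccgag
In Slc1a4 the match begins 4 bases before the start, as their reverse complement TTGCATCA. In the Slc7a7 window shown the matches begin 141 bases and 1 base before it.

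The chains of the CD98 and rBAT heteromers were compared within each kidney as log2 ratios of counts (0.5 added to each count), which need no scaling between libraries. For the light chains, Slc7a5 to Slc7a8 averaged -1.23 ± 0.66 in RIAKI kidneys and -4.67 ± 1.46 in control kidneys (SD, n = 6 each), a difference of 3.43 (2-sided exact permutation test over 924 assignments, p = 0.00216, the same after adjustment over the 2 ratios). The lowest RIAKI kidney was at -2.05 and the highest control kidney at -3.17. For the heavy chains, Slc3a2 to Slc3a1 averaged 0.86 ± 0.84 in RIAKI kidneys and -0.96 ± 0.42 in control kidneys (SD, n = 6 each), a difference of 1.82 (2-sided exact permutation test, p = 0.00216, adjusted p = 0.00216). The lowest RIAKI kidney was at 0.13 and the highest control kidney at -0.38. This p is the smallest that 6 against 6 kidneys can give. Taken singly, Slc7a8 and Slc3a1 were called lower, while Slc7a5 and Slc3a2 were not called. The CPM of Slc7a8 and of Slc3a1 already did not overlap between the groups. The ratio tests therefore partly restate those lower levels and are no support for a rise of Slc7a5 or Slc3a2. Slc7a5 had 21 counts in RIAKI and 7 in controls, and lies within Gm20388 on the opposite strand. Since 2 of the 6 control kidneys had 0 counts of Slc7a5, the size of the first ratio depends on the added 0.5.

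**Figure D5:**
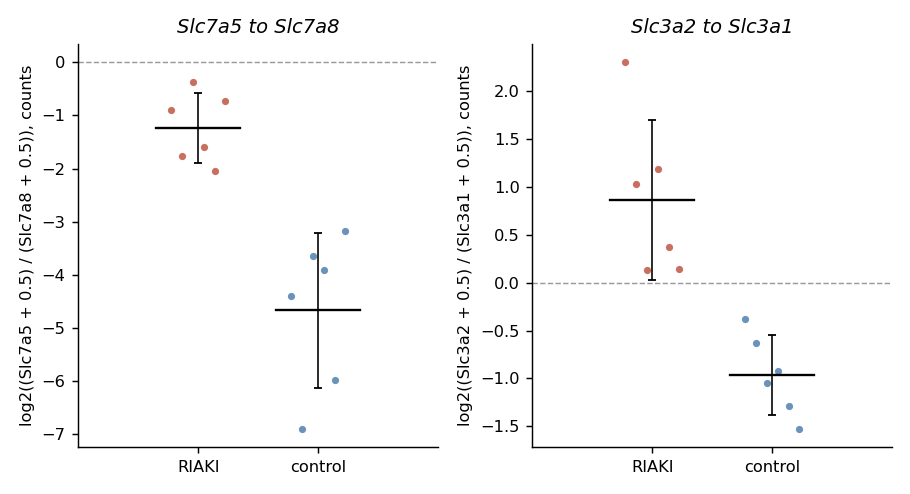
Log2 ratio of counts within each kidney (y axis, 0.5 added to each count) for the light chains Slc7a5 to Slc7a8 and the heavy chains Slc3a2 to Slc3a1, 1 point per kidney with mean and SD (n = 6), RIAKI left of control. The groups do not overlap in either ratio, with the nearest kidneys at -2.05 (RIAKI) and -3.17 (control) on the left and at 0.13 (RIAKI) and -0.38 (control) on the right.

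In the remaining roles, 20% of the tested lysosomal genes and 20% of the tested other genes were lower, near the 18.8% of all tested genes. With so few genes these shares are coarse. Of the 5 lysosomal genes, all tested, only Slc36a1 (PAT1), the proton-driven exporter of small amino acids from lysosomes, was called. It had 0.55, 0.97 and 1.87 CPM in RIAKI and 3.17, 4.57 and 7.33 CPM in controls, without overlap, and a log2 fold change of -2.11 (SE 0.41, edgeR adjusted p = 0.000111) from 12 counts in RIAKI and 56 in controls. Slc38a9, the lysosomal arginine sensor, had a log2 fold change of -0.69 (edgeR adjusted p = 0.157). Of the 13 neuronal or glial genes 6 had no count, 5 were tested and 0 were called by edgeR's quasi-likelihood test, by its exact test or by DESeq2. At an unadjusted p under 0.05 there were 2, Slc6a15 and Slc6a4, with log2 fold changes of 0.94 and -1.93 (edgeR adjusted p = 0.0811 and 0.099).

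Among the 22 other genes, 10 were tested and 2 (20%) were lower, against 18.8% of all tested genes. Slc7a12 (asc-type light chain of mouse kidney) had 0 counts in all 6 RIAKI kidneys and 16 counts in the control kidneys, between 1.06 and 1.87 CPM each. Set against a floor of 3 counts over the RIAKI group, its level was at least 5.21-fold lower. Slc7a12 passed the count minimum through the control kidneys alone, so its call could go only 1 way and is not read as support. Slc38a10 had 4.97, 11.2 and 12.6 CPM in RIAKI and 10.6, 14.98 and 23.2 CPM in controls, with overlap of the groups (log2 fold change -0.66, SE 0.22, edgeR adjusted p = 0.0208). The call of Slc38a10 was lost with library totals as the only scaling (adjusted p = 0.110), without RIAKI replicate 6 (0.059) and without control replicate 2 (0.0967). Slc36a4 and Slc43a3, with 162 and 129 counts, had log2 fold changes of 0.01 and 0.34 and were not called.

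Of the 11 lower genes other than Slc7a12, 9 were brush border or basolateral carriers, and markers of the proximal tubule were lower too. The brush border genes Slc6a18 (log2 fold change 0.61, called higher) and Slc6a19 (0.14, not called) were not lower with these markers. The basolateral gene Slc38a3 was not called. All 16 markers were lower, against 18.8% of all tested genes, with a median log2 fold change of -2.0. The part of these markers' cells in the transporter results was not tested.

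Some blood cell markers also differed between the groups. Of 16 macrophage and neutrophil markers 13 were tested, 6 (46.2%) were higher and 2 (15.4%) were lower (Cd74 and Csf1r). Among all tested genes 17.4% were higher and 18.8% lower. Itgam, 1 of the 6, had 10 counts in RIAKI and 0 in controls, so its call could go only 1 way. The summed level of the 16 markers was 111 to 166 CPM in RIAKI and 102 to 166 CPM in controls. Cd74 had the highest level of the list, with means of 46.1 CPM in RIAKI and 98.3 CPM in controls. Its lower level masks higher markers in that sum. S100a8 and S100a9 had log2 fold changes of 3.48 and 4.06, whereas Ly6g had 0 counts in every library. Of 8 T and B cell markers only Cd3d was tested, and it was not called. Of 7 endothelial markers 0 were called by edgeR's quasi-likelihood test, by its exact test or by DESeq2, and 0 had an unadjusted p under 0.05. The part of infiltrating cells in the higher Slc38a2 and Slc7a1 levels was not tested.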

How the data were processed

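Kidney RNA of 6 RIAKI and 6 control mice was analysed, with groups and replicate numbers taken from the sample labels. The deposited counts are whole numbers per gene that the authors made from QIAseq UPX 3′ libraries. Reads were collapsed by unique molecular index, mapped to the GRCm38 build and summed over Ensembl genes in CLC Genomics Workbench. Exon counts were used for all tests, and counts of uniquely mapped reads as an alternative. Intron counts are given as a description. The authors' TPM column was not used.

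From these, genes with at least 10 counts over the 12 libraries were tested with edgeR 4.0.16 (TMM, quasi-likelihood test, Benjamini-Hochberg over all tested genes) in R 4.3.3. The SE is the absolute log2 fold change over the square root of F. Library sizes were full totals. The 2 count ratios were compared by exact permutation over libraries. The code was tested on simulated data. Alternatives were edgeR's exact test (the study's own test), DESeq2 1.42.0, other scalings and filters, uniquely mapped reads, the replicate block and leaving out each library. The transporter genes, their roles and all lists were chosen with earlier results of these data known. Every brush border, basolateral and stress-induced gene was named, and any other transporter gene that was called.

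Counts of the transporter genes were 581 to 1155 per library in RIAKI and 1110 to 2263 in controls. This limits precision: 9 of the 39 tested genes had under 10 counts in a group. Of the exon counts of each tested transporter gene, at least 98.1% were uniquely mapped. No pair of libraries was identical. Each kidney came from its own mouse, but which of the study's mice were sequenced was not given in the sources used here. The labels name no batch.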

Additional observations from a re-analysis of the deposited data

Results flagged for a closer look

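The Slc15a2 level in control replicate 6 was 37.4 CPM, far from the 27.4 to 30.0 CPM of the other control kidneys. Of 48 groups of 6 kidneys examined in this way, this was the only such value. Chance gives about 1 in every 20 groups, so a single one in 48 is no more than chance gives. The call of Slc15a2 was kept without that kidney and under every other alternative tried, with log2 fold changes of -2.23 to -2.12.

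Slc7a15 had 1 exon count in all, but its introns held 97 reads in RIAKI and 5 in controls, in data outside the comparisons of exon counts. Each RIAKI kidney had 9 to 26 of these reads and each control kidney 0 to 2. The lncRNA gene 5033421B08Rik overlaps Slc7a15 on the opposite strand and had 2 exon counts in RIAKI and 0 in controls. Whether these intron reads come from Slc7a15 itself was not tested.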

How the results depend on the processing

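No direction turned under any of the 21 alternatives. Of 22 transporter genes followed one by one, 19 kept their side of the threshold in every alternative that tested them, as did 442 of 454 values. With filterByExpr, which tested 16 transporter genes, 1 stress-induced gene was higher, and the called genes Slc7a1, Slc36a1 and Slc7a12 were not tested. Leaving out each library in turn gave 3 to 5 higher and 11 to 12 lower transporter genes, and 2 to 4 higher stress-induced genes, with the highest numbers without RIAKI replicate 6.

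Slc3a2 was called with no filter on low counts (adjusted p = 0.00688), with uniquely mapped reads (0.0453), without RIAKI replicate 3 (0.0408), 5 (0.0227) or 6 (0.0227) and without control replicate 1 (0.0277) or 2 (0.0478). Over all its alternatives the adjusted p of Slc3a2 ran from 0.00688 to 0.262, that of Slc7a5 from 0.0438 to 0.290 and that of Slc38a10 from 0.011 to 0.110. The cause was not tested. The Slc7a5 to Slc7a8 difference ran from 3.04 to 4.26 over the added counts tried and from 2.99 to 3.73 when 1 library was left out. The Slc3a2 to Slc3a1 difference ran from 1.81 to 1.83 and from 1.54 to 1.97.

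Replicate numbers were shared by both groups, but deviations of same-numbered kidneys had correlations of -0.22 to 0.37, so the numbers were not taken as pairs. With the replicate block, 4 transporter genes were higher and 12 lower, 3 stress-induced genes were higher (Slc3a2 with adjusted p = 0.00797), and 2398 genes were higher and 2563 lower in all. Only RIAKI replicate 4 correlated best with the control kidney of its own number. For the ratios, an exact sign flip over the 6 numbered differences gave p = 0.03125, the smallest it allows, for both.

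Depth is the main limit. Slc7a5, Slc38a3 and Slc7a12 rest on 28, 47 and 16 counts, strand use is unknown for overlapping genes, and tags from the 3′ end do not separate isoforms.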
